A study of Mus musculus with 6 samples.

Results

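Neuregulin and ErbB signalling is represented here by 9 genes, namely 4 ligand genes (*Nrg1*, *Nrg2*, *Nrg4* and *Hbegf*), 4 receptor genes (*Egfr*, *Erbb2*, *Erbb3* and *Erbb4*) and the feedback inhibitor gene *Errfi1*. They were picked by gene symbol, and all 9 were found among the 20066 genes of the deposited table. RNA was sequenced from primary cardiomyocytes (CMs) of C57BL/6 mice aged P0-1, cultured with the solvent dimethylsulfoxide (DMSO, 3 libraries) or with cell-permeable α-ketoglutarate (αKG, 3 libraries). αKG, a Krebs cycle intermediate and co-substrate of dioxygenases, was given at 100 µM for 96 h according to the labels. Cells of both groups came from dissociated neonatal hearts, with no cell sort described, and the study asked whether αKG prevents maturation of CMs and stimulates their proliferation.

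ErbB receptors are receptor tyrosine kinases that pair on ligand binding and signal through the RAS-ERK and PI3K-AKT cascades. Neuregulins bind ERBB3 and ERBB4, heparin-binding EGF-like growth factor (HB-EGF) binds EGFR and ERBB4, and ERBB2 has no known ligand of its own and serves as the partner of the others. ERBB3 has little kinase activity. In the heart, neuregulin 1 from endothelial cells reaches ERBB4 and ERBB2 on CMs, a pathway known to drive trabeculation in the embryo and CM proliferation around birth.

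The values are read counts normalized and rounded by the authors, called normalized reads below, and fold changes are differences of log2(normalized reads + 1) between αKG and DMSO. The depth estimated from the spacing of low values was 3725428 to 4428655 reads in genes per library. The 10 markers of CMs were all listed. They summed to 76001 to 78669 in DMSO, and to 108932, 112192 and 80586 in αKG replicates 1 to 3. Their median log2 fold change was only 0.08, and 0 of 10 passed a limma adjusted p under 0.05, where 3.78% of all genes did. Without overlap, 3 were higher and 1 was lower in αKG, where 13.7% and 14.6% of all genes were. Markers of other cells were also present. Endothelial markers summed to 2291 to 2413 in DMSO and 1581 to 1725 in αKG, and 8 of 12 passed as lower, where 0.952% of all genes did. Fibroblast markers summed to 3251 to 3436 in DMSO, and to 7268, 7094 and 3314 in αKG replicates 1 to 3. Epicardial markers summed to 505 to 569 in DMSO, and to 1263, 1270 and 515 in αKG. Of the fibroblast and epicardial markers, 0 of 10 and 0 of 10 passed. Thus αKG replicate 3 lay at the level of the controls for the markers of fibroblasts and epicardium, but not for those of endothelium. Endocardial markers summed to 926 to 946 in DMSO, and to 1399, 1369 and 851 in αKG, and 1 of the 4 listed passed as lower. Of 12 cell cycle markers 4 passed as higher, where 2.83% of all genes did. Their sums were 7113, 5039 and 3932 in DMSO and 8587, 8263 and 9548 in αKG, so that here αKG replicate 3 was the highest. Because αKG replicate 3 stood apart, the 9 genes and the named pathway genes are given per library, with the fit without it beside that of all libraries. DMSO replicates 2 and 3 did not differ detectably beyond counting error over 13077 genes (chi-square per gene 1.02, chi-square p = 0.103). The other control pairs had a chi-square per gene of 1.43 and 1.93. Over the 12 cell cycle markers, a list chosen with earlier results known, DMSO replicates 2 and 3 differed (exact binomial p = 6.11e-32). That test takes reads as independent, which reads amplified by PCR need not be. These tests cannot decide whether the libraries came from separate cultures, which the labels do not say. They were kept as separate samples, as labelled. With DMSO replicates 2 and 3 averaged into 1 sample, 19 genes passed in place of 759, with 0 of the 9 genes described here. In bulk RNA, fewer cells of a type and less RNA per cell cannot be told apart.

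The 9 genes differed widely in level. Per kilobase of exon in DMSO, *Erbb2* (93.1 ± 1.5 normalized reads per kb, SD, n = 3), *Hbegf* (69.9 ± 2.6) and *Erbb4* (52.5 ± 2) were the highest. *Erbb3* (23.5 ± 2.7), *Errfi1* (18.2 ± 2.8) and *Nrg1* (9.66 ± 1.7) followed, then *Egfr* (2.53 ± 0.95), *Nrg2* (0.85 ± 0.18) and *Nrg4* (0.604 ± 0.19). The DMSO ranges of *Nrg2* and *Nrg4* overlapped, and the highest DMSO value of *Errfi1*, 20.1, nearly reached the lowest of *Erbb3*, 20.4. In αKG the order at the top changed, with *Hbegf* at 99.7 ± 12 (n = 3) and *Erbb2* at 88.5 ± 15, which overlapped, ahead of *Erbb4* at 65.3 ± 4.4. *Nrg2* and *Nrg4* were close to the detection limit, and among these 4 ligand genes *Hbegf* was the most abundant per length in every library.

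**Figure D1:**
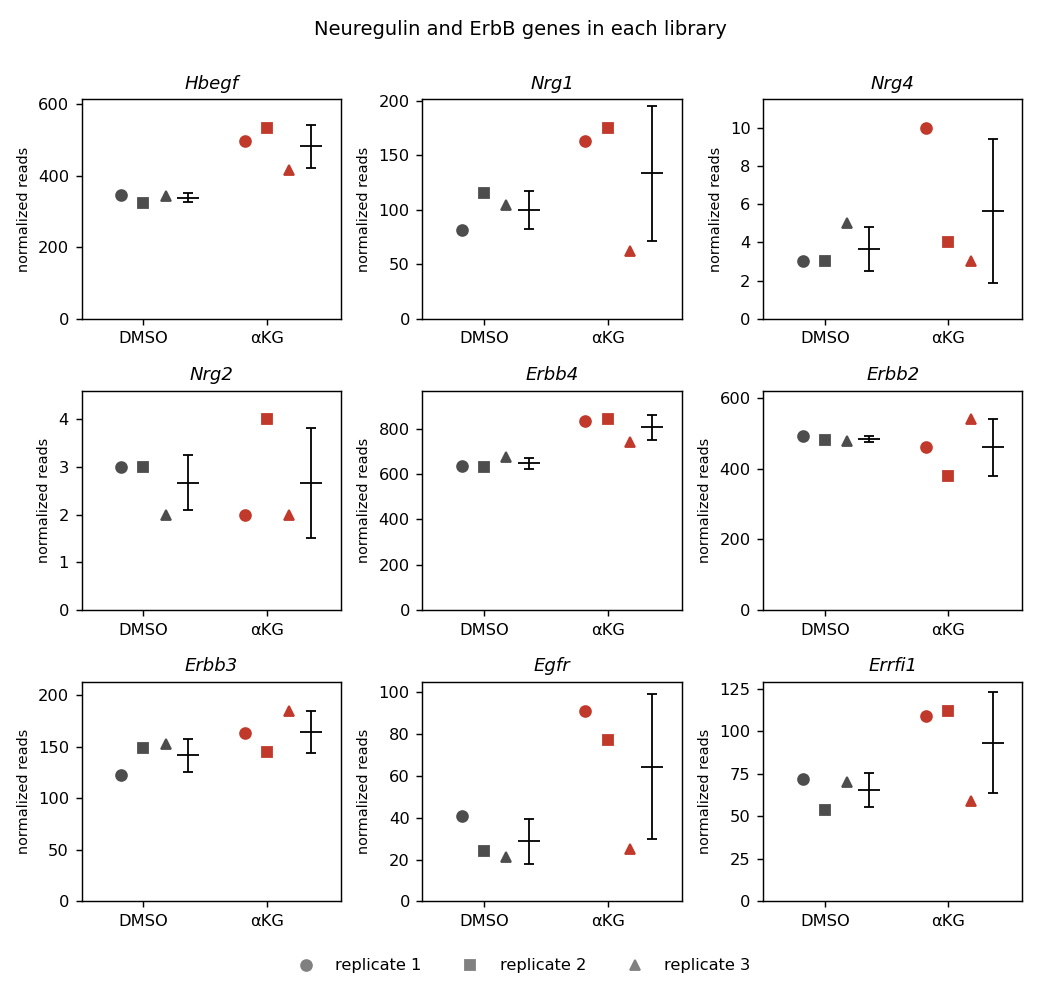
Normalized reads of the 9 genes (vertical axes, each from 0) in the 3 DMSO (grey) and 3 αKG (red) libraries, with marker shape giving the replicate and bars the mean ± SD over the 3 libraries. In *Hbegf* and *Erbb4* every αKG library lies above every DMSO library, whereas in *Nrg1*, *Egfr* and *Errfi1* αKG replicates 1 and 2 are high and replicate 3 (triangle) lies among or below the controls.

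Of the 9 genes, 1 (*Hbegf*) passed the threshold of a limma adjusted p under 0.05, where 3.78% of all 20066 genes passed. In 2 genes, *Hbegf* and *Erbb4*, the groups did not overlap and αKG was higher, against 28.3% of all genes without overlap and 13.7% with αKG the higher. Without αKG replicate 3, 5 genes rose (*Hbegf*, *Nrg1*, *Erbb4*, *Egfr* and *Errfi1*) and 0 fell, where 37.2% of all genes passed and 19.3% passed as higher. The median fold change of the 9 genes was 0.31 on the log2 scale and that of all genes 0.04.

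*Hbegf* encodes a membrane-anchored growth factor that is shed by metalloproteases and acts on neighbouring cells (ENSMUSG00000024486, GRCm38 chromosome 18, 36504927 to 36515805, minus strand). It had 346, 323 and 344 normalized reads in DMSO and 497, 533 and 416 in αKG replicates 1 to 3. All 3 αKG libraries exceeded all controls, with replicate 3 the closest to them. The mean rose from 337.7 ± 12.7 to 482 ± 59.9 (SD, n = 3 in each group), or in the fit of all libraries by 0.51 ± 0.10 on the log2 scale (SE, limma adjusted p = 0.0367). The direction was the same in 15 of 15 alternative fits, but the call was lost in 10 of them, including each fit without any library other than αKG replicate 3 (adjusted p 0.135 to 0.255) and the fit with DMSO replicates 2 and 3 averaged (0.50, adjusted p = 0.189). Without αKG replicate 3 the log2 fold change was 0.61 (adjusted p = 0.00123).

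*Nrg1*, the neuregulin gene of the heart's endothelium (ENSMUSG00000062991, chromosome 8, 31814551 to 32884797, minus strand), had 81, 115 and 104 normalized reads in DMSO and 163, 175 and 62 in αKG. αKG replicates 1 and 2 lay above all controls, and αKG replicate 3 lay below all of them. The log2 fold change of 0.29 ± 0.34 did not pass (limma adjusted p = 0.599, 95% interval -0.48 to 1.06). It was 0.77 (adjusted p = 0.0116) without αKG replicate 3. Of the endothelial markers, *Pecam1* was 339, 303 and 307 in DMSO and 129, 134 and 184 in αKG. *Cdh5* was 519, 442 and 518 in DMSO and 222, 195 and 316 in αKG. Both were lower in every αKG library than in every control, with αKG replicate 3 the closest to the controls. The 12 endothelial markers summed to 2291 to 2413 in DMSO and to 1725, 1581 and 1584 in αKG replicates 1 to 3. The summed fibroblast and epicardial markers were high in αKG replicates 1 and 2, as *Nrg1* was. The part of endothelial, fibroblast or epicardial cells in the *Nrg1* values was not tested.

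*Nrg2* and *Nrg4*, genes of 2 further neuregulins, were scarcely detected. *Nrg2* (ENSMUSG00000060275) had 3, 3 and 2 normalized reads in DMSO and 2, 4 and 2 in αKG, which corresponds to about 8 reads in each group (exact Poisson 95% interval 3.45 to 15.8, counting error only). *Nrg4* (ENSMUSG00000032311) had 3, 3 and 5 in DMSO and 10, 4 and 3 in αKG, or about 11 reads (5.49 to 19.7) against 16 (9.15 to 26). The groups overlapped in both genes, and a difference was not detectable at this depth (limma adjusted p = 0.975 for *Nrg2* and 0.614 for *Nrg4*, and 0.88 and 0.279 without αKG replicate 3). Exons of *Nrg4* share 368 bases with those of *Fbxo22* on the opposite strand, and the way reads there were assigned is not given in the sources used here.

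Among the receptors, *Erbb4* and *Erbb2* carried most of the reads per length and are described first, with the sequences around their start sites. The RefSeq table (GRCm38.p6) held such windows for 5 of the 9 genes. Those of *Erbb4*, *Erbb2* and *Egfr* are shown because the receptor comparison turns on these 3 genes, and that of *Errfi1* because it belongs to the inhibitor induced by the receptors. Each runs 5′ to 3′ from 250 bases before the annotated start to 50 bases after it. Capitals mark matches, on either strand, to 5 motifs. The letters TGACGTCA stand for a cyclic AMP response element, which CREB-type factors bind. The AP-1 site, bound by FOS and JUN proteins, was searched as TGANTCA with any base at N. A GC box, the site of SP1-type factors, was searched as GGGCGG on either strand. The TATA box near the start of some genes was taken as TATAAA in these windows. The E-box of basic helix-loop-helix factors was searched in its form CACGTG alone.
*Erbb4*, chr1:69108010-69108309, minus strand: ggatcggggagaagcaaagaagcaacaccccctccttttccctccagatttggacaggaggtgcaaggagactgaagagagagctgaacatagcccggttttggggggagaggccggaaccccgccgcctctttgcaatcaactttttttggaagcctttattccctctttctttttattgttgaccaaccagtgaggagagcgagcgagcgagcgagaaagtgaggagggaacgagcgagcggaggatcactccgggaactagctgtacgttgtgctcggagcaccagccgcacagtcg
*Erbb2*, chr11:98412234-98412533, plus strand: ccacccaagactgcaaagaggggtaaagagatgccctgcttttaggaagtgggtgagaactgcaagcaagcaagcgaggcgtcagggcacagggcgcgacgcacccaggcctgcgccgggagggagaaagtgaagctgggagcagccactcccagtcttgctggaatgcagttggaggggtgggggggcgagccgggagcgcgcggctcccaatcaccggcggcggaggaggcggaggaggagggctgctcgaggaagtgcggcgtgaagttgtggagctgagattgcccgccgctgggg
*Egfr*, chr11:16751953-16752252, plus strand: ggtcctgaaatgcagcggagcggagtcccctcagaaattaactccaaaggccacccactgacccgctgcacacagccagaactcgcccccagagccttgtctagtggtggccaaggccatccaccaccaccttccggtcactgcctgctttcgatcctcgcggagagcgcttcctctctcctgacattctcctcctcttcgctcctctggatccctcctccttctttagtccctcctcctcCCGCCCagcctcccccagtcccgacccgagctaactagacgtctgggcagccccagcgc
*Errfi1*, chr4:150854820-150855119, plus strand: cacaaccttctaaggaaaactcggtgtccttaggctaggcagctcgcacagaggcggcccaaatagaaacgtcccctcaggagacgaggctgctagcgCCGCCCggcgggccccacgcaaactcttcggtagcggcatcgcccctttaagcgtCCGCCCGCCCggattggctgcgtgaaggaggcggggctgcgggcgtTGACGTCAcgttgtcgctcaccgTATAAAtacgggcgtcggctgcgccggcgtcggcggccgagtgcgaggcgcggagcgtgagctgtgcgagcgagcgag

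The windows of *Erbb4* and *Erbb2* held none of the 5 motifs and that of *Egfr* held 1 GC box. The window of *Errfi1* held 1 cyclic AMP response element, 3 GC boxes (2 of them overlapping) and 1 TATA box. Over 32851 windows of 300 bases, these motifs were found in 1.79%, 35.66% and 13.62%, and the AP-1 site and E-box in 7.81% and 7.15%. CpG pairs numbered 17, 21, 15 and 41 in the order printed, against a median of 7. A second *Errfi1* start, not shown, had 2 CpG pairs and none of the motifs.

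*Erbb4* is the neuregulin receptor of CMs (ENSMUSG00000062209, chromosome 1, 68032186 to 69108059, minus strand). It had 637, 631 and 677 normalized reads in DMSO and 836, 842 and 744 in αKG. Every αKG library was above every control, and αKG replicate 3 lay between the controls and the other treated libraries. The means were 648.3 ± 25 and 807.3 ± 54.9 (SD, n = 3 in each group), with a log2 fold change of 0.31 ± 0.07 that missed the threshold (limma adjusted p = 0.0506, 95% interval 0.15 to 0.48). It passed in 4 of 15 alternative fits, among them the fit without αKG replicate 3 (0.37, adjusted p = 0.00255). With DMSO replicates 2 and 3 averaged it did not (0.32, adjusted p = 0.206).

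*Erbb2*, the ligandless partner receptor (ENSMUSG00000062312, chromosome 11, 98412470 to 98437716, plus strand), had 494, 481 and 480 normalized reads in DMSO and 463, 380 and 540 in αKG. The controls lay close together, whereas the αKG libraries lay on both sides of them. The log2 fold change was -0.09 ± 0.12 (limma adjusted p = 0.645, 95% interval -0.35 to 0.18). It was -0.21 without αKG replicate 3 (adjusted p = 0.102) and 0.04 without αKG replicate 2. *Erbb2* thus showed no call in either direction, and it shares 9 exonic bases with *Mien1* on the opposite strand.

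*Erbb3* encodes the kinase-impaired neuregulin receptor (ENSMUSG00000018166, chromosome 10, 128567523 to 128589652, minus strand). It had 123, 149 and 153 normalized reads in DMSO and 163, 145 and 185 in αKG. The groups overlapped through αKG replicate 2 (log2 fold change 0.21 ± 0.14, limma adjusted p = 0.334, 95% interval -0.10 to 0.52). It was 0.12 without αKG replicate 3 (adjusted p = 0.454) and 0.11 without DMSO replicate 1. *Erbb3* also marks Schwann cells, and 7 markers of Schwann cells and neural crest were read. They summed to 52 to 60 in DMSO and 57 to 96 in αKG, with *Sox10* at 0 to 4. In αKG replicate 3, which had the highest *Erbb3* value, this sum was 57 and thus within the control range.

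*Egfr*, a receptor of HB-EGF (ENSMUSG00000020122, chromosome 11, 16752203 to 16918158, plus strand), had 41, 24 and 21 normalized reads in DMSO and 91, 77 and 25 in αKG. αKG replicates 1 and 2 lay at 77 or above and αKG replicate 3 within the control range. The log2 fold change of 1.00 ± 0.45 did not pass (limma adjusted p = 0.18, 95% interval -0.01 to 2.02), but it was 1.57 without αKG replicate 3 (adjusted p = 0.00853). *Pdgfra*, a fibroblast marker, had 238, 297 and 248 in DMSO and 410, 412 and 196 in αKG, and *Col1a1* had 1018, 1006 and 951 against 2402, 2288 and 1042. These markers and *Egfr* were high in the same 2 libraries, and their part in the *Egfr* values was not tested.

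The make-up of receptor transcripts was compared per exon length. Of the reads per kb of the 4 receptors, *Erbb2* took 55.6%, 54.2% and 52.9% in DMSO and 46.4%, 42.4% and 52.7% in αKG. *Erbb4* took 30.2%, 30% and 31.5% in DMSO and 35.3%, 39.6% and 30.6% in αKG, and *Egfr* 1.06% to 2.12% against 4.19%, 3.95% and 1.12%. The ratio of *Erbb4* to *Erbb2* per length was 0.544, 0.553 and 0.595 in DMSO and 0.761, 0.934 and 0.581 in αKG. *Erbb4* remained below *Erbb2* per length in every library, and αKG replicate 3 was close to the controls. These shares are given as a description without a test.

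**Figure D2:**
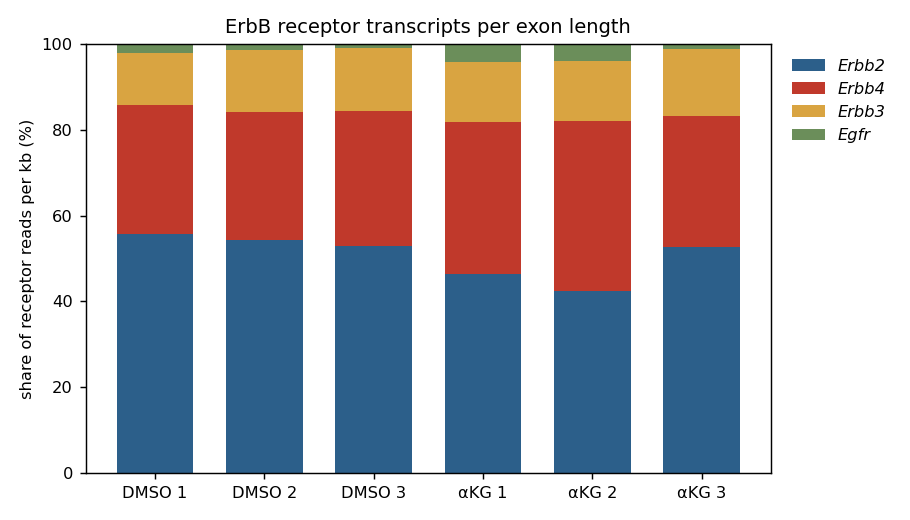
Share of each ErbB receptor gene (coloured segments, percent) in the summed reads per kb of exon of the 4 receptors, for each of the 6 libraries. The *Erbb2* segment is 52.9% to 55.6% in DMSO and shrinks to 46.4% and 42.4% in αKG replicates 1 and 2, but is 52.7% in αKG replicate 3.

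*Errfi1* (ENSMUSG00000028967, chromosome 4, 150853919 to 150868892, plus strand) encodes MIG6, a cytoplasmic protein that binds and blocks the kinase domain of ErbB receptors and is induced by their signalling. It had 72, 54 and 70 normalized reads in DMSO and 109, 112 and 59 in αKG. αKG replicates 1 and 2 were above all controls and αKG replicate 3 was among them. The log2 fold change was 0.46 ± 0.25 (limma adjusted p = 0.255, 95% interval -0.10 to 1.03), and 0.76 without αKG replicate 3 (adjusted p = 0.0106).

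**Figure D3:**
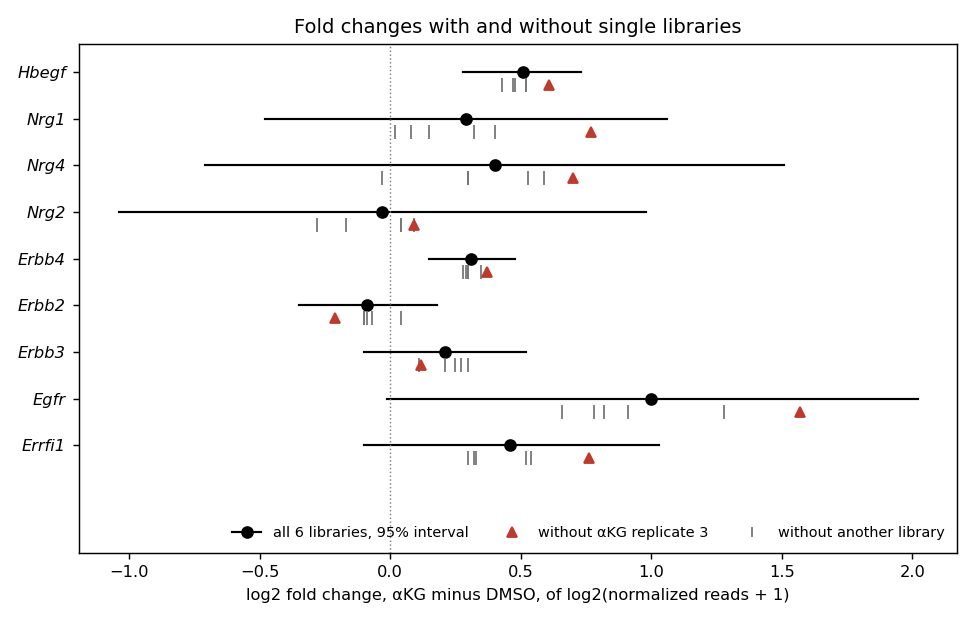
Log2 fold changes (horizontal axis) of the 9 genes with all 6 libraries (black circles, bars giving the 95% interval), without αKG replicate 3 (red triangles) and without each other library (grey ticks). The intervals of *Hbegf* and *Erbb4* stay above 0, and *Nrg1*, *Egfr* and *Errfi1* shift to 0.77, 1.57 and 0.76 without αKG replicate 3.

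*Erbb4* spans 1076 kb, and its introns contain further annotated features whose exons do not overlap its own. Of these, 8 on the same strand were listed, namely 5 unconfirmed transcripts (TEC), 1 sense-intronic RNA, 1 processed pseudogene and 1 small nuclear RNA. Together they had 45, 64 and 54 normalized reads in DMSO and 228, 223 and 80 in αKG. This was more in every αKG library than in every control, and αKG replicates 1 and 2 stood far above αKG replicate 3. Per 100 *Erbb4* exon reads, the features had 7.06, 10.1 and 7.98 reads in DMSO and 27.3, 26.5 and 10.8 in αKG. The intronic reads thus differed more between the groups than the *Erbb4* exon reads. Their mean sums differed 3.26-fold (54.33 ± 9.5 against 177 ± 84, SD, n = 3 in each group). For *Erbb4* the fit gave a difference of 1.24-fold, which is the log2 fold change of 0.31.

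The highest of these features, the sense-intronic *Gm16076*, had 14, 21 and 14 normalized reads in DMSO and 57, 60 and 24 with αKG (log2 difference 1.39 ± 0.37, limma adjusted p = 0.0628, and 1.80 without αKG replicate 3, adjusted p = 0.00269). *Gm37735* had 5, 9 and 11 against 52, 51 and 16 (2.01 ± 0.48, limma adjusted p = 0.0507, and 2.55 without αKG replicate 3, adjusted p = 0.0028). In 4 of the 8 features αKG was higher without overlap, against 13.7% of all genes, and 0 of 8 passed limma's adjusted threshold, although 5 had an unadjusted p under 0.05, against 28.1% of all genes. Without αKG replicate 3, 7 of 8 rose, where 19.3% of all genes did. Over the whole table, 1532 TEC genes had a median log2 fold change of 0.86 and 219 sense-intronic genes one of 0.77. The median was 0.19 for 1160 processed pseudogenes and 0.46 for 107 small nuclear RNAs. The 8 features, a mix of these 4 types, had a median of 1.38. RNA had been treated with DNase according to the labels. Reads from unspliced *Erbb4* RNA and from separate transcripts cannot be told apart in these values.

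**Figure D4:**
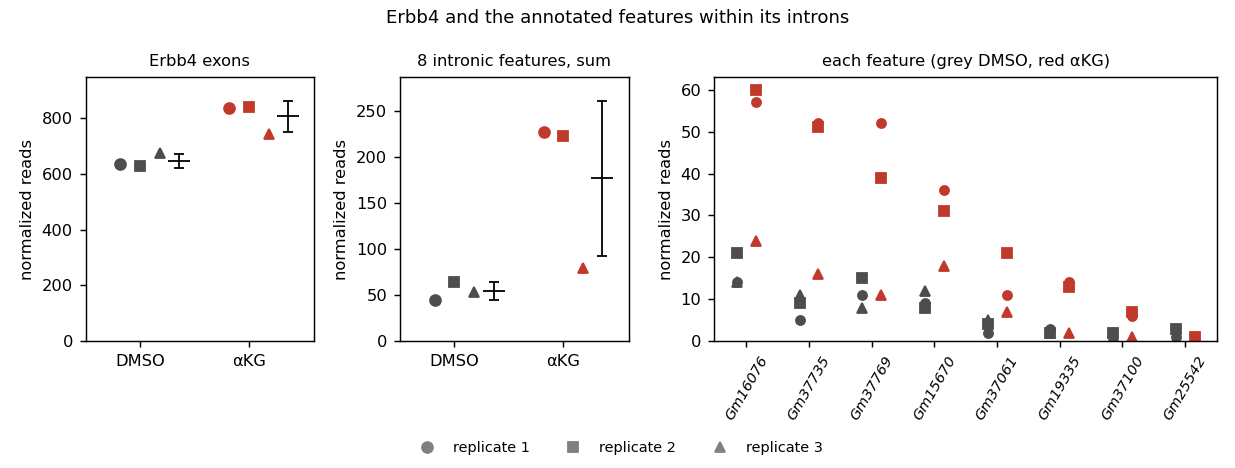
Normalized reads (vertical axes) of *Erbb4* exons, of the sum of the 8 features in its introns, and of each feature in DMSO (grey) and αKG (red), with marker shape giving the replicate and bars, in the panels for exons and sum, the mean ± SD over the 3 libraries. The summed features reach 228 and 223 in αKG replicates 1 and 2 and 80 in replicate 3, against 45 to 64 in DMSO.

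Fold changes also differed by genomic span. Among protein-coding genes averaging 50 normalized reads or more, 97 spanned 500 kb or more and had a median log2 difference of 0.20. Set against the DMSO mean, their medians were 0.33, 0.30 and 0.02 for αKG replicates 1 to 3. The 1895 genes under 10 kb had a median of -0.18. *Erbb4* had 0.37, 0.38 and 0.20 in αKG replicates 1 to 3, and *Nrg1*, which spans 1070 kb, had 0.71, 0.82 and -0.67. *Hbegf* spans 10.88 kb and had 0.56, 0.66 and 0.30, whereas the 6447 genes of 10 to 100 kb had a median of -0.08. The part of gene span in the *Erbb4* difference was not tested.

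The other genes of the pathway were read from 7 lists with 90 genes, of which 89 were listed (*Nrg3* was not). Of these, 1 rose and 1 fell, where 2.83% of all genes rose and 0.952% fell. *Pik3cb*, the β catalytic subunit of PI3-kinase, had 189, 181 and 166 normalized reads in DMSO and 260, 266 and 226 with αKG, with no overlap (log2 difference 0.48 ± 0.11, limma adjusted p = 0.0445). *Dusp5*, a nuclear phosphatase that inactivates ERK, had 205, 197 and 218 in DMSO and 119, 121 and 159 in αKG, again with no overlap (-0.64 ± 0.14, limma adjusted p = 0.0402). Their calls were lost in 10 and 9 of 15 alternative fits, always with the same direction, and with DMSO replicates 2 and 3 averaged their adjusted p were 0.204 and 0.189. Without αKG replicate 3 they were 0.56 (adjusted p = 0.00347) and -0.78 (adjusted p = 0.00123).

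In the lists for the signal relays, more genes lay lower than higher in αKG. Of 16 genes of the RAS-ERK relay, 8 lay below every control in each αKG library and 1 lay above, where 14.6% and 13.7% of all genes did so. None passed the adjusted threshold of limma, and 9 had an unadjusted p under 0.05, against 28.1% of all genes. *Sos1*, an exchange factor that activates RAS, had 801, 860 and 816 in DMSO and 649, 655 and 738 with αKG (difference on the log2 scale -0.28 ± 0.07, limma adjusted p = 0.0634, and -0.34 without αKG replicate 3, adjusted p = 0.0032). Of 15 genes of the PI3K-AKT relay, 6 were lower without overlap and 2 higher. The medians of these lists were -0.19 and -0.14 on the log2 scale. Without αKG replicate 3, 9 of 16 and 7 of 15 genes fell, where 17.9% of all genes did, and 1 and 2 rose, where 19.3% did.

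Among 13 ERK-responsive genes 0 passed, with 3 at an unadjusted p under 0.05, where 28.1% of all genes were. Their median log2 fold change was 0.22, with 9 genes above 0 and 4 below. Without overlap, 2 were higher and 1 was lower in αKG, where 13.7% and 14.6% of all genes were. Without αKG replicate 3, 3 rose and 1 fell, where 19.3% and 17.9% of all genes did. The gene with the smallest p, described next, was thus not typical of the list. *Egr1*, an immediate early transcription factor induced by ERK, had 313, 320 and 329 normalized reads in DMSO and 259, 245 and 254 in αKG, so that αKG replicate 3 lay with the other treated libraries (log2 fold change -0.34 ± 0.08, limma adjusted p = 0.0536, and -0.35 without αKG replicate 3, adjusted p = 0.00662). The 18 other negative regulators had a median of -0.06, with *Dusp5* as the 1 gene past the threshold. In the 8 sheddases and their regulators, which release ligands from the membrane, 0 passed. *Adam9*, a metalloprotease, had 910, 968 and 930 in DMSO and 1419, 1454 and 991 in αKG, without overlap (log2 fold change 0.44 ± 0.13, limma adjusted p = 0.0788, and 0.62 without αKG replicate 3, adjusted p = 0.000486).

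Of the 6 other EGF-family ligands listed, 0 passed. *Epgn* (epigen) had 3, 4 and 4 normalized reads in DMSO and 0, 1 and 3 in αKG, near the detection limit (log2 fold change -1.21 ± 0.57, limma adjusted p = 0.195, and -1.71 without αKG replicate 3, adjusted p = 0.0275). Among 14 receptor partners and trafficking genes 0 passed. The smallest p belonged to *Cav3*, the muscle caveolin, with 365, 376 and 393 in DMSO and 273, 283 and 342 in αKG (-0.34 ± 0.10, limma adjusted p = 0.0833, and -0.44 without αKG replicate 3, adjusted p = 0.00287).

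**Figure D5:**
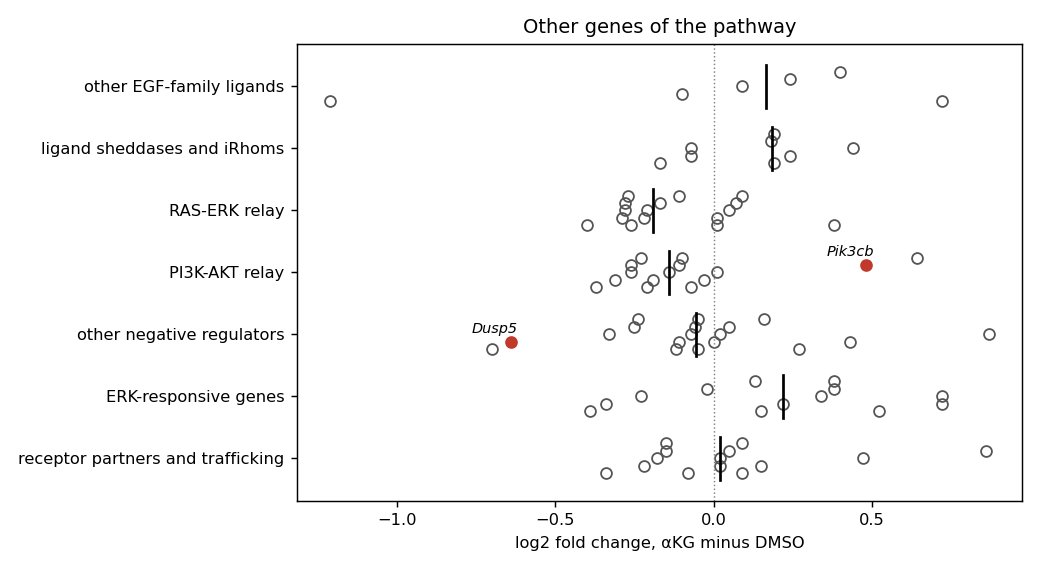
Log2 fold change (horizontal axis) of each listed gene of the 7 pathway lists, with filled red circles for the genes past the adjusted threshold and vertical black lines for list medians. *Pik3cb* (0.48) and *Dusp5* (-0.64) are filled, and the relay lists have medians of -0.19 and -0.14.

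The genes nearest in pattern to *Hbegf*, *Errfi1* and *Erbb4* were found by the Pearson correlation of log2 values over the 6 libraries, among 10182 genes averaging 50 or more. For *Hbegf* they were *Pdia4* (r = 0.9983), *Rpgrip1l* (0.9956) and *Vldlr* (0.9952). For *Errfi1* they were *Gapdh* (0.996), *Trim16* (0.9958) and *Pkm* (0.989), and for *Erbb4* they were *Marchf3* (0.9972), *Rras* (0.9968) and *Mdfic* (0.9955). *Vldlr* had 1405, 1368 and 1492 normalized reads in DMSO and 2127, 2320 and 1772 in αKG, with αKG replicate 3 between the others as for *Hbegf*. *Gapdh*, a gene with many processed pseudogenes whose shared reads make its level uncertain, had 292, 264 and 299 against 358, 360 and 272, with αKG replicate 3 among the controls as for *Errfi1*. With 6 libraries in 2 groups, high values of r are common and are given as a description.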

How the data were processed

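Total RNA of neonatal CM cultures was sequenced in 6 libraries. The submitters' processing notes name Trimmomatic 0.39, STAR 2.7.10a, featureCounts 2.0.3, DESeq2 1.30.1 and mm10 (GRCm38.p5). For adult CM libraries, the study's methods state that the authors counted reads at least partly in exons and dropped those of several genes or places, which is not stated for these libraries. The deposited values are called a score, since the authors had divided read counts by a factor per library and rounded to whole numbers. A count model was therefore not used for the main test. Replicate pairs were compared by chi-square on reads estimated from these values, for genes with at least 20 reads in the pair, which covers counting error only, since reads amplified by PCR and lacking molecular identifiers need not be separate molecules. The value of 1 read, estimated from which low whole numbers occur, was 0.9259 to 1.1188, and 37 of 40 simulated factors were recovered within 0.3%.

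All 20066 genes were fitted with limma 3.58.1 (R 4.3.3, trend allowed, pseudocount 1, no filter, treatment as the only term), with Benjamini-Hochberg adjustment over all genes. On simulated data over 20066 genes with the median spread of the αKG libraries, 83 of 100 genes changed 1 log2 unit and 98 of 100 changed 2 were called. The simulated noise was independent between genes, so it held no library that stood apart like αKG replicate 3. Changes under 1 log2 unit, like those of *Hbegf* and *Erbb4*, were not simulated. The members and gene lists were chosen with earlier results of these data known. All 9 members were named, and of each pathway list the genes past the threshold (at most 3) or the gene with the smallest p. Nearest patterns were taken for the 3 members of largest fold change with a mean of at least 50. *Gm16076*, *Gm37735*, the genomic spans and the single marker genes were chosen after their values were seen. Alternatives were a filter, pseudocounts, scalings, variance models, a replicate block, averaged controls and each library left out. Exon lengths came from GENCODE M21, in which 99% of genes, but not *Nrg1*, had the deposited position. Counting was not stated to use strand. The labels do not say whether libraries came from separate cultures, so p-values measure the spread between these libraries. The study's methods give a concentration of the αKG ester that differs from the labels.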

Additional observations from a re-analysis of the deposited data

How the results depend on the processing

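The count of all genes past the threshold, 759, was 0 to 7466 over the fits without 1 library (0 without αKG replicate 1 or 2, where 3324 and 3244 had an unadjusted p under 0.05, and 7466 without αKG replicate 3), and that of the 9 members, 1, was 0 to 5 (5 without αKG replicate 3, 0 without any other). Of the pathway genes, 2 in all, 0 to 42 passed, and of the *Erbb4* features, 0 in all, 0 to 7, again with the highest counts without αKG replicate 3. In the order all genes, members and pathway genes, limma without a mean trend gave 27, 0 and 0, limma-voom 351, 0 and 1, DMSO replicates 2 and 3 averaged, a fit with fewer samples, gave 19, 0 and 0 (3518, 2 and 21 at an unadjusted p under 0.05), and a pseudocount of 0.1 gave 346, 0 and 0. *Erbb4* joined *Hbegf*, making 2 members, with the filter on a mean of 10, a pseudocount of 5 and quantile normalization. The filter gave 4 pathway genes and 1 feature, and scaling to equal totals 4 and 2. The cause was not tested. The fits of the features were chosen after seeing the data. Directions that reversed had no call. Without single libraries *Nrg2* was -0.28 to 0.09 (0.04 without DMSO replicate 1 or 2), *Nrg4* -0.03 to 0.70, *Erbb2* -0.21 to 0.04 and *Gm25542* -0.83 to 0.17 (0.17 without DMSO replicate 2 and 0.0 without αKG replicate 1). For each of the other members the direction held in all 15 alternatives. Over single genes and alternatives, a call was lost 29 times and gained 25 times.

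With the replicate number as a replicate block, 46 genes, 0 members and 0 pathway genes were called. Deviations of same-numbered libraries from their group means correlated at -0.035, 0.057 and 0.017, and 2 of 3 DMSO libraries correlated best with their own number. With 3 libraries per group, this cannot decide whether same-numbered libraries shared a culture, which the labels do not say. At this depth no difference was detectable in *Nrg2* and *Nrg4*.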
